A study of Homo sapiens with 12 samples.

Results

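Untreated THP-1 macrophages were compared with untreated EA.hy926 endothelial cells, gene by gene, to set out how the transcripts of the lines differ before any lipoprotein is added. The members were the genes with a mean of at least 10 normalised counts in either group of control libraries, 16948 of the 20117 genes in the table. Of these, 15060 reached that mean in THP-1, 13926 in EA.hy926 and 12038 in both. The members just inside the limit had a higher group mean of 10.0018 and those just outside it 9.98974. THP-1 is a monocytic leukaemia line, which the labels type as monocytes and title as macrophages induced with the phorbol ester PMA, and EA.hy926 is a hybrid of umbilical vein endothelial cells with the lung carcinoma line A549, typed as endothelial. Each group had 3 libraries of total RNA labelled as biological replicates, 6 of the 12 samples of the series, and the libraries given LDL were kept out of the comparison. THP-1 was grown in RPMI-1640 with 10% fetal bovine serum and 2-mercaptoethanol and EA.hy926 in DMEM with serum. From the third day the controls spent 24 h after a wash with no serum and no LDL, THP-1 in RPMI-1640 and EA.hy926 in DMEM. Line, medium and PMA treatment therefore differed together and cannot be told apart. How separate the replicate cultures were is not given, so each p-value measures only how much these libraries vary.

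Macrophages and endothelial cells both belong to the vessel wall in atherosclerosis, but are made by different sets of transcription factors. In the myeloid lineage PU.1, C/EBP and IRF proteins open the genes of receptors, integrins and phagocytic enzymes, and the cells lean on signalling proteins that only blood cells use. Endothelial identity rests on ETS factors such as ERG with SOXF and KLF proteins, which keep the genes of junctions, of clotting control and of the receptors for vascular growth factors active in a flat, matrix-bound cell.

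Recovered depth was 6.88 to 11.0 M reads per library, and one read counted as 0.653 to 1.16 normalised counts. The THP-1 libraries lay closer together, with a median SD of 0.0959 on the log2 scale over genes with reads in both lines against 0.186 in EA.hy926. The signal recognition particle RNA, RN7SL1, made up 8.90% to 12.7% of the reads in EA.hy926 and 1.74% to 2.07% in THP-1. Zeros often filled a whole line: 5153 genes had 0 reads in the 3 EA.hy926 libraries together and 85 had 1 to 6, and in THP-1 the numbers were 3805 and 153. Such genes are called listed at 0 below, with no fold, because a group at 0 in this table does not show absence; the macrophage gene CD68 was at 0 in THP-1. Values per gene are normalised counts in replicates 1, 2 and 3, and a difference is given on a log2 scale of the value plus 1, THP-1 minus EA.hy926, with its SE. A gene was called when the adjusted p of limma, with Benjamini-Hochberg adjustment over all 16948 genes, was under 0.05.

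The labels were checked against marker genes. CSF1R (ENSG00000182578.14, chr5:150053291-150113372, minus strand), the receptor of the growth factor M-CSF, stood at 8877, 9136 and 10121 in THP-1. CYBB (ENSG00000165168.9, chrX:37780011-37813461, plus strand), the catalytic subunit of the phagocyte oxidase, stood at 5499, 5599.9 and 5717, and ITGAM (ENSG00000169896.18, chr16:31259967-31332892, plus strand), the alpha chain of the complement receptor CR3, at 4856, 4706 and 5064. All 3 were listed at 0 in every EA.hy926 library. CDH5 (ENSG00000179776.19, chr16:66366622-66404786, plus strand), the cadherin of endothelial junctions, stood at 7079, 6419.5 and 6505 in EA.hy926, and the keratin gene KRT7 (ENSG00000135480.17, chr12:52232520-52252186, plus strand) at 5331, 5554 and 5486. Both were listed at 0 in every THP-1 library. Endoglin and PECAM-1 did not separate the lines in that way. ENG (ENSG00000106991.14, chr9:127815012-127854756, minus strand), a TGF-beta coreceptor, was at 1897, 1986 and 2266 in THP-1 and 5070.1, 5723 and 4988 in EA.hy926, a log2 difference of -1.36 ± 0.09 (limma adjusted p = 5.8e-06). PECAM1 (ENSG00000261371.6, chr17:64319415-64413776, minus strand), an adhesion molecule that macrophages also carry, was at 1123, 1073 and 1055 in THP-1 and 3482, 2867 and 2945 in EA.hy926 (-1.51 ± 0.08). In each case all EA.hy926 libraries lay above all THP-1 libraries. Of 19 macrophage markers found, 17 were at 10 or more in THP-1 and 5 in EA.hy926, where 13 were at 0 and the sum over the list was 1005 to 1096 against 34843 to 37063 in THP-1. Of 17 endothelial markers 10 and 16 were at 10 or more, with sums of 3820 to 4193 in THP-1 and 31659 to 32311 in EA.hy926. Both labels matched most of their defining markers. Markers of other blood cells were read in THP-1 too. All 5 granulocyte markers found there were at 10 or more and at 0 in EA.hy926, led by AZU1, a protein of primary granules, at 642, 686 and 746. The B cell gene CD22 stood at 526, 459 and 476 and the NK cell gene NCAM1 at 374, 346 and 364, the only 1 of 4 NK cell markers found that reached 10, and their part in the results was not tested.

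**Figure D1:**
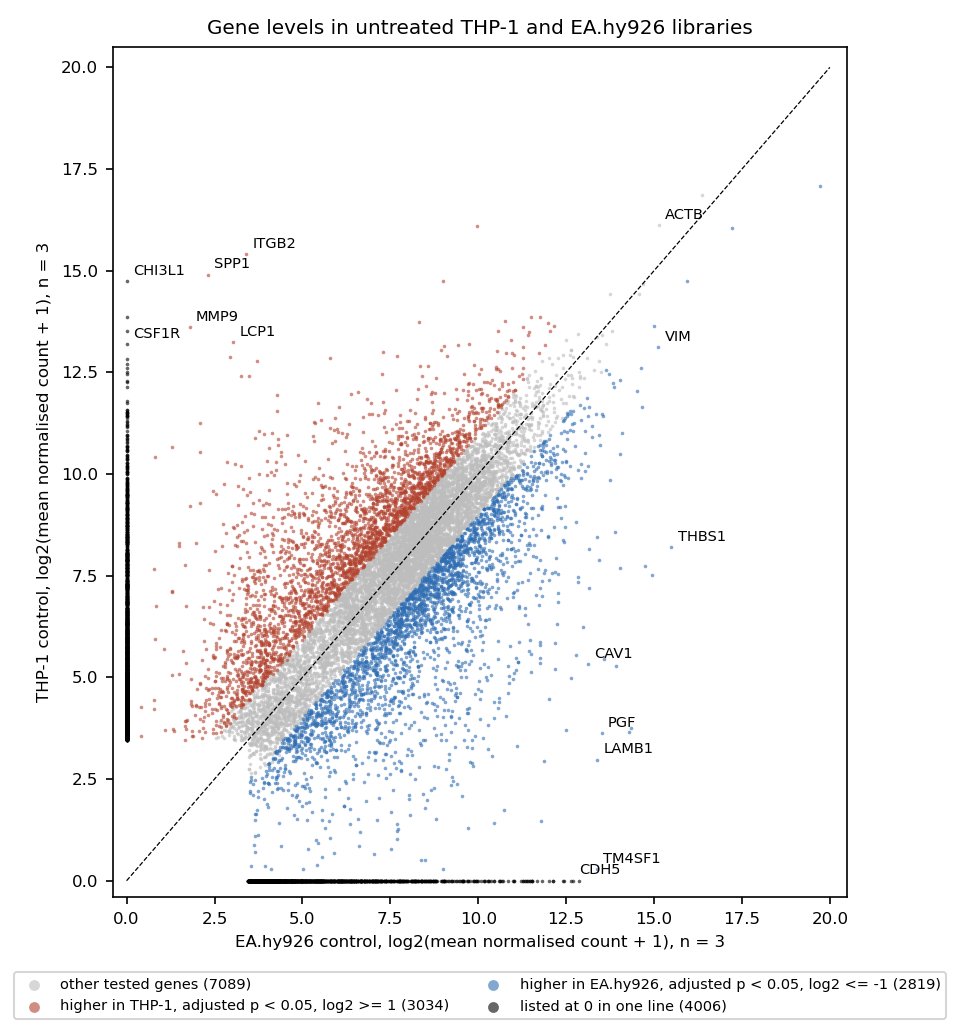
Mean level of each of the 16948 genes in EA.hy926 control (x axis) and THP-1 control (y axis), as log2 of the mean normalised count of 3 libraries plus 1; the dashed line marks equal values. Red and blue points are the 3034 and 2819 genes with reads in both lines that were called with a log2 difference of at least 1, and black points on the axes are the 2538 genes listed at 0 in EA.hy926 and the 1468 listed at 0 in THP-1.

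The lines differed at most genes, which sets the level against which each gene group has to be read. Of the 16948 genes, 14098 were called (83.2%), 7749 of them higher in THP-1 (45.7%) and 6349 higher in EA.hy926 (37.5%). With a log2 difference of at least 1 as well, 9859 were called (58.2%), of which 5572 (32.9%) were higher in THP-1 and 4287 (25.3%) in EA.hy926. Among these were 2538 genes listed at 0 in EA.hy926 (15% of all tested) and 1468 listed at 0 in THP-1 (8.66%). They have no fold and were counted past that limit only with the 1 added to each value. Of the 12942 genes with reads in both lines, 5211 (40.3%) were higher in THP-1, 4881 (37.7%) were higher in EA.hy926, and their median log2 difference was 0.04. With a log2 difference of at least 1 as well, 3034 of them (23.4%) were higher in THP-1 and 2819 (21.8%) in EA.hy926. The 3 libraries of a line lay wholly above those of the other at 14360 genes (84.7%). Quantile normalization moved the median of all genes from 0.18 to -0.02, so single differences of that size are read relative to it. With the LDL libraries of the lines compared in place of the controls, 24 of the genes named had the opposite direction, among them BATF3, IL13RA1, CD55, TLR3, DLL4, NF2, ISG20 and IFI27.

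Among genes with reads in both lines, SPP1 (ENSG00000118785.15, chr4:87975650-87983426, plus strand), which encodes the secreted phosphoprotein osteopontin, was among the genes with the largest differences towards THP-1. It stood at 29551, 30999 and 31461 in THP-1 and 5.10, 4.39 and 2.32 in EA.hy926, a log2 difference of 12.65 ± 0.22 (limma adjusted p = 8.4e-09). ITGB2 (ENSG00000160255.19, chr21:44885953-44931989, minus strand), the beta chain shared by the leukocyte integrins, stood at 41728, 42202 and 46486 in THP-1 and 8.16, 3.29 and 17.4 in EA.hy926, and the gelatinase gene MMP9 (ENSG00000100985.7, chr20:46008908-46016561, plus strand) at 11579.8, 12316 and 13894 in THP-1 and 4.08, 2.19 and 1.16 in EA.hy926. The EA.hy926 values of these genes rest on a few reads per library, so that the size of such a difference depends on the 1 added to each value, and no THP-1 library came near them. The other genes with the largest differences were LCP1, which bundles actin in leukocytes (10.40 ± 0.44), the sorting receptor gene SORL1 (10.03 ± 0.28), NCKAP1L, a subunit of the WAVE complex (9.25 ± 0.42), the coronin gene CORO1A (9.22 ± 0.24) and RIMS3 (9.20 ± 0.18). VAV3, an exchange factor for small GTPases, was also among them, at 1700.0, 1639 and 1502 in THP-1 and 1.02, 2.19 and 1.16 in EA.hy926, and so was the complement gene C3, at 1272, 1313 and 1484 in THP-1 and 0, 1.10 and 1.16 in EA.hy926. Their EA.hy926 values come from 0 to 2 reads per library and carry no fold. Genes listed at 0 in EA.hy926 with the highest levels in THP-1 included CHI3L1, a secreted chitinase-like protein, at 26348, 26365 and 29582. A2M, a protease inhibitor, stood at 14618, 14493 and 15725, and DOCK8, an exchange factor for CDC42, at 11936, 11550.0 and 11710.3. The rest of the 10 were CSF1R, ITGB7, LPL, NUP210, SDC2, CYBB and MRC2, with means from 4982 to 9378.

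Towards EA.hy926 the largest differences included genes of matrix and vessel growth. PTX3 (ENSG00000163661.4, chr3:157436789-157443628, plus strand), a soluble pattern recognition protein, stood at 19079.9, 20892 and 20418 in EA.hy926 and 11.3, 14.4 and 9.40 in THP-1, a log2 difference of -10.65 ± 0.14 (limma adjusted p = 4e-09). LAMB1 (ENSG00000091136.15, chr7:107923799-108003255, minus strand), a laminin chain of basement membranes, stood at 10007, 10262 and 11641 in EA.hy926 and 11.3, 4.57 and 4.70 in THP-1, and PGF, a growth factor of the VEGF family, at 11178, 11759.8 and 12075 in EA.hy926 and 9.58, 15.03 and 9.40 in THP-1. Each of these genes was read in all 6 libraries without overlap between the lines. ADGRG1 (-10.36 ± 0.24), TJP1, the tight junction scaffold ZO-1 (-9.11 ± 0.38), SEMA6B (-8.95 ± 0.23) and ERRFI1, a brake on the EGF receptor (-8.80 ± 0.20), followed. ADGRG1 had 7 reads and TJP1 8 reads over the THP-1 libraries. The size of their differences therefore depends on the 1 added to each value. ANGPTL4, an inhibitor of lipoprotein lipase, stood at 1265, 1399.5 and 1512 in EA.hy926 and 3.48, 0.653 and 0.94 in THP-1, where 6 reads in all give no fold. TM4SF1, a membrane protein of the transmembrane 4 family, had 10471, 10971 and 10326 in EA.hy926 and a single read among the THP-1 libraries. The highest genes listed at 0 in THP-1 were APLN, the gene of the peptide apelin, at 7047, 7869 and 7445, CDH5, and LAMA4, a laminin chain of vessels, at 6799, 5593 and 6657. FRMD6, KRT7, EFEMP1, EPHA2, KRT18, FLNC and DKK1 had means from 3243 to 5585.

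Transcription factors of the lineages followed the labels, with a few members on the other side. Of 28 myeloid transcription factors tested, 24 were higher in THP-1, 3 were higher in EA.hy926, and LYL1 was not called; 13 of the 24 were listed at 0 in EA.hy926. SPI1 (ENSG00000066336.12, chr11:47354860-47378576, minus strand), which encodes PU.1, stood at 678, 709 and 763 in THP-1 and at 0 in EA.hy926. IRF8 was likewise at 0 in EA.hy926, with 779, 758 and 788 in THP-1, and so was IKZF1, with 1056, 1043 and 1035 in THP-1. CEBPA, a factor of the granulocyte and monocyte lineage, was read in both lines, at 1887, 2094 and 2245 in THP-1 and 19.4, 13.2 and 17.4 in EA.hy926, a log2 difference of 6.89 ± 0.15 (adjusted p = 2.2e-08). Its relative CEBPB, which is induced in inflammation, went the other way, at 243, 248 and 268 in THP-1 and 1939, 2332 and 2107 in EA.hy926 (-3.06 ± 0.08, adjusted p = 6.3e-08). The immediate early gene EGR1 (-1.73 ± 0.11) and BATF3 (-0.72 ± 0.13) were the others higher in EA.hy926. RUNX1, a factor of blood and of the endothelium that forms it, was at 1717, 1709 and 1841 in THP-1 and 627, 698 and 783 in EA.hy926 (1.32 ± 0.09).

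Of 27 endothelial transcription factors, 21 were higher in EA.hy926 and 6 in THP-1, and 8 were listed at 0 in THP-1. ERG (ENSG00000157554.20, chr21:38380027-38661780, minus strand) stood at 199.9, 229 and 183 in EA.hy926 and at 0 in THP-1. Of the SOXF genes, which act in arterial and lymphatic identity, SOX17 was at 46.9, 82.3 and 76.5 in EA.hy926 and at 0 in THP-1, and SOX7 and SOX18 were also at 0 in THP-1. KLF2, the factor that laminar flow induces, was at 1328, 2098 and 2076 in EA.hy926 and 29.6, 45.1 and 38.5 in THP-1, a log2 difference of -5.55 ± 0.23 (adjusted p = 4.5e-07). NR2F2, the venous factor COUP-TFII, stood at 1278, 1299.7 and 859 in EA.hy926 and 32.2, 35.9 and 48.9 in THP-1. The other 6 had the reverse direction. FLI1, an ETS factor close to ERG, was at 914, 881 and 862 in THP-1 and 598, 432 and 456 in EA.hy926 (0.85 ± 0.13, adjusted p = 0.00055). LMO2 was at 1320.3, 1426 and 1399 in THP-1 and 361, 373 and 386 in EA.hy926, and MEF2C at 2585, 2543 and 2546 in THP-1 and 53.05, 46.1 and 35.9 in EA.hy926. The others were ETS1 (0.84 ± 0.05), KLF6 (1.01 ± 0.05) and HEY2, at 9.58, 11.1 and 9.40 in THP-1 and at 0 in EA.hy926.

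**Figure D2:**
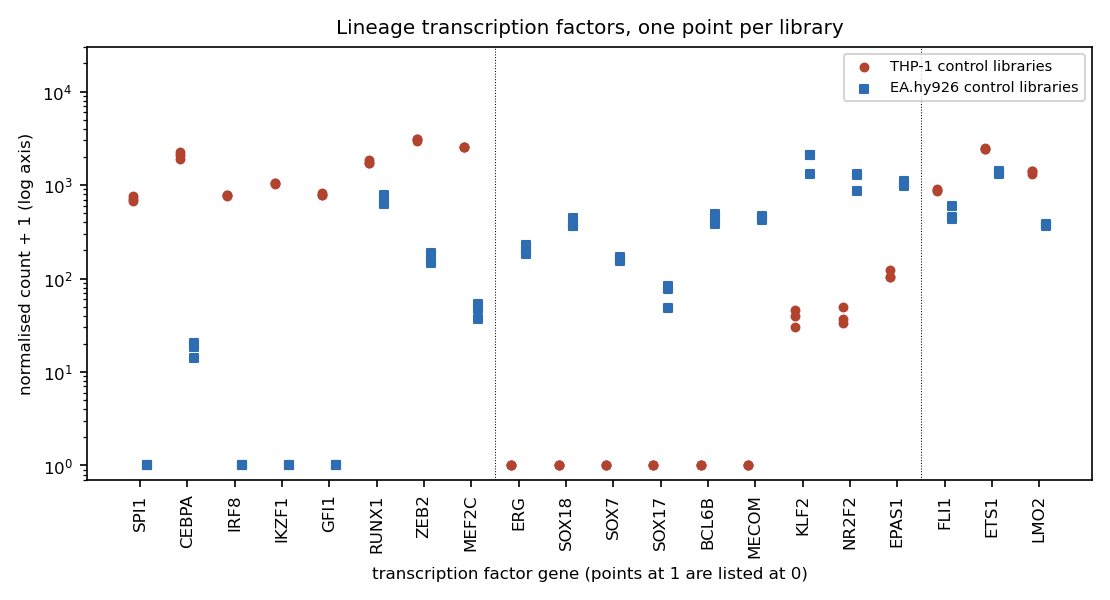
Normalised count plus 1 on a log axis for 20 lineage transcription factors, with one point per library (red circles THP-1 control, blue squares EA.hy926 control; points at 1 are listed at 0). Myeloid and blood factors from SPI1 to MEF2C are on the left and endothelial factors from ERG to EPAS1 in the middle. MEF2C is counted in the text among the endothelial factors. FLI1, ETS1 and LMO2 on the right are higher in THP-1 with no overlap. The 20 do not cover the lists, where 3 of 28 myeloid factors were higher in EA.hy926 and 6 of 27 endothelial factors in THP-1.

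The HOX genes, which encode position along the body axis, differed by cluster. THP-1 carries a fusion of KMT2A with MLLT3, a lesion known in leukaemia for raised HOXA genes and MEIS1. HOXA9 was at 161, 155 and 152 in THP-1 and 53.05, 74.6 and 41.7 in EA.hy926 (1.49 ± 0.21, adjusted p = 0.00039), HOXA10 at 301, 333 and 311 in THP-1 and 112, 145 and 131 in EA.hy926, and HOXA11 at 96.7, 125 and 118 in THP-1 and 28.6, 15.4 and 19.7 in EA.hy926. HOXA13 was at 125, 125 and 107 in THP-1 and at 0 in EA.hy926. These genes were higher in every THP-1 library, whereas HOXA7 was higher in EA.hy926, at 41.8, 60.3 and 67.3 against 20.03, 11.8 and 14.1 in THP-1, and HOXA3 was listed at 0 in THP-1. The HOXA partner MEIS1 (ENSG00000143995.20, chr2:66433452-66573869, plus strand) was listed at 0 in THP-1 and stood at 38.8, 43.9 and 46.4 in EA.hy926, while the cofactor PBX3 was at 931, 959.9 and 967 in THP-1 and 168, 152 and 161 in EA.hy926. Of the 28 HOX, MEIS and PBX genes tested, 9 were higher in THP-1, 15 higher in EA.hy926 and 4 not called. Of the 15, 14 were listed at 0 in THP-1, among them every HOXC and HOXD gene tested. The highest were HOXD8 at 115, 122 and 89.3 and HOXD9 at 75.5, 123 and 70.7.

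Signalling proteins of blood cells gave the most one-sided list. All 32 tested haematopoietic kinases and adaptors were called higher in THP-1, 17 of them listed at 0 in EA.hy926, and the 15 read in both lines had a median log2 difference of 3.74 against 0.04 over all such genes. PTPRC, the phosphatase CD45, stood at 2969.9, 3012 and 2905 in THP-1 and at 0 in EA.hy926. TYROBP, the adaptor DAP12, stood at 899, 953 and 1012 in THP-1 and at 0 in EA.hy926, and FCER1G, the common gamma chain of Fc receptors, at 1342, 1396 and 1480.1 in THP-1 and at 0 in EA.hy926. The kinase gene LYN was read in both lines, at 991, 947 and 935 in THP-1 and 77.5, 74.6 and 67.3 in EA.hy926 (3.70 ± 0.08, adjusted p = 2.1e-08). No EA.hy926 library came near the THP-1 range at PTPRC, TYROBP, FCER1G or LYN. INPP5D, the phosphatase SHIP1, was at 2078, 2164 and 2121 in THP-1 and 15.3, 6.58 and 16.2 in EA.hy926 (7.37 ± 0.31), and LAPTM5, a lysosomal membrane protein of blood cells, at 8673, 9084 and 9989.6 in THP-1 and 738, 713 and 619 in EA.hy926 (3.74 ± 0.09). The smallest differences among the 15 were at CSK, a kinase that switches SRC kinases off (0.56 ± 0.07), and the exchange factor gene RASGRP3 (0.55 ± 0.11).

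Many of these proteins have a close relative that other tissues use, which allowed 27 paralogue pairs to be set side by side. The leukocyte member was called higher in THP-1 in 16 pairs and listed at 0 in EA.hy926 in the other 11. The broadly expressed member was higher in EA.hy926 in 15 pairs, listed at 0 in THP-1 in 3, higher in THP-1 in 7 and not called in 2. The pairs with opposite calls thus numbered 18. The pairs were put together with earlier results of these data known, and the count describes them alone. LCP1 (ENSG00000136167.15, chr13:46125920-46211871, minus strand), the leukocyte plastin that bundles actin, stood at 10072, 9554 and 9340.2 in THP-1 and 8.16, 10.97 and 2.32 in EA.hy926. Its relative PLS3 (ENSG00000102024.19, chrX:115561174-115650861, plus strand) stood at 144, 133 and 122 in THP-1 and 5509, 4682 and 4593 in EA.hy926, a log2 difference of -5.20 ± 0.10 (adjusted p = 1.1e-08). The 2 plastins thus differed in opposite directions, without overlap between the lines. The same held for the WAVE complex subunits, with NCKAP1L at 7066, 7017 and 7017 in THP-1 and 18.4, 13.2 and 4.64 in EA.hy926 and NCKAP1 at 141, 128 and 135 in THP-1 and 2185, 1871 and 1978 in EA.hy926. The Rac exchange factors were complementary in the table: DOCK2 stood at 2764, 2619.6 and 2569 in THP-1 and at 0 in EA.hy926, and DOCK1 at 0 in THP-1 and 811, 632 and 713 in EA.hy926. CYBB and NOX4, the oxidase subunits of phagocytes and of other tissues, were complementary too, with NOX4 at 580.5, 458 and 511 in EA.hy926 and at 0 in THP-1. HCLS1, the leukocyte cortactin, differed little, at 1719, 1681 and 1713 in THP-1 and 989.5, 1101 and 1078 in EA.hy926 (0.69 ± 0.06), while CTTN was at 49.6, 52.9 and 69.5 in THP-1 and 2038, 2319 and 2538 in EA.hy926 (-5.31 ± 0.15).

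In 7 pairs the broad member was also higher in THP-1. MYO1E, a class I myosin, was at 2306, 2248 and 2286 in THP-1 and 336, 293 and 247 in EA.hy926 (2.97 ± 0.11), beside MYO1F at 1961, 2035 and 2003 in THP-1 and at 0 in EA.hy926. INPPL1, the relative of INPP5D, differed by 1.10 ± 0.10, the integrin chain ITGB1 by 0.62 ± 0.07, CORO1C by 0.85 ± 0.08, RAC1 by 0.70 ± 0.13, PIK3CB by 1.26 ± 0.12 and PTPN11 by 0.37 ± 0.07. PIK3CA (0.28 ± 0.13) and CYTH3 (0.25 ± 0.11) were not called, with values of 203, 221 and 227 and 239, 266 and 272 in THP-1 and 195, 147 and 199 and 198, 248 and 208 in EA.hy926. CYTH3 and PTPN11 had small differences that turned when the LDL libraries of the lines were compared instead, to -0.81 and -0.21.

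**Figure D3:**
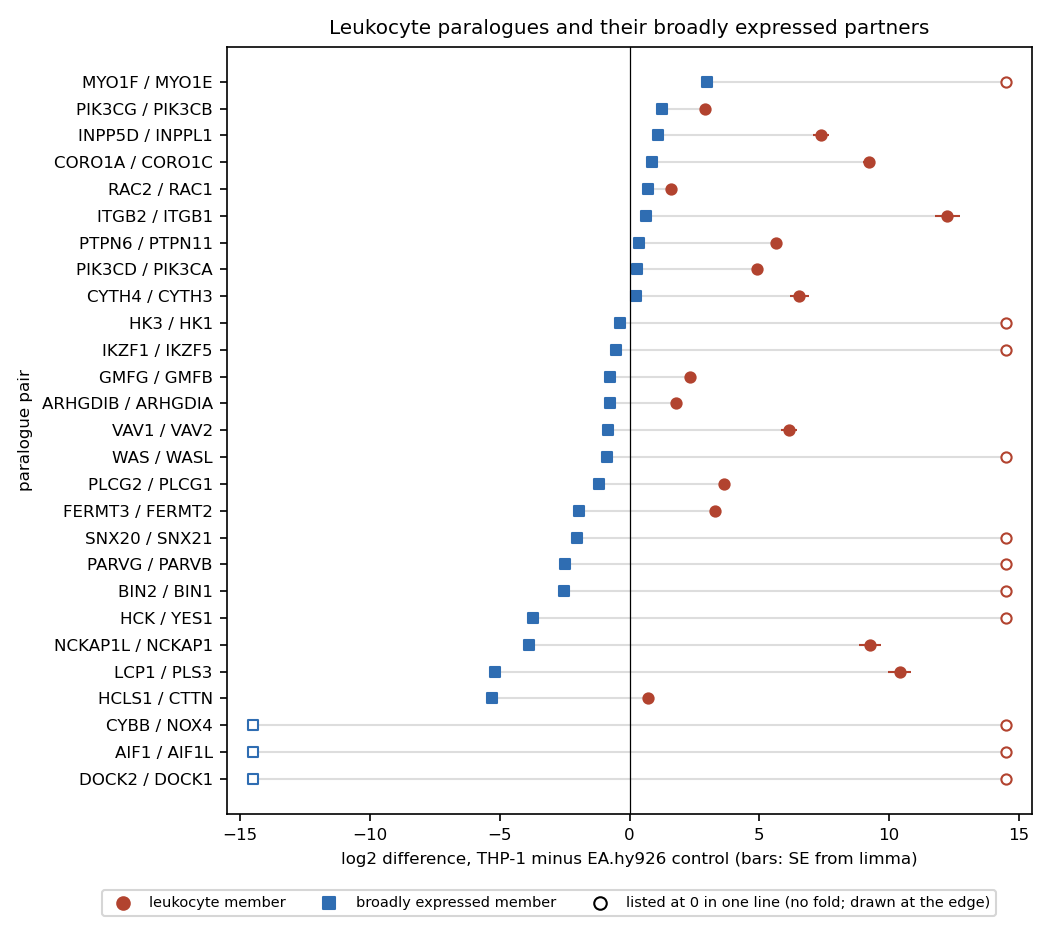
Log2 difference, THP-1 minus EA.hy926 control, for the leukocyte member (red circles) and the broadly expressed member (blue squares) of 27 paralogue pairs, with the SE from limma as bars. Open symbols at the edges are genes listed at 0 in one of the lines, which have no fold; all 27 red symbols lie to the right of 0.

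The promoters of LCP1, PLS3 and TYROBP are shown because SPI1 had reads in THP-1 and was listed at 0 in EA.hy926 and PU.1 is known to bind purine-rich sites before myeloid genes. The sequences are the 250 bases before the gene start of RefSeq (GRCh38.p14), on the gene's strand, 5′ to 3′, with capitals marking GAGGAAGT or its reverse complement, an 8-base form of the site that PU.1 binds. LCP1 is at chr13:46182178-46182427 (minus strand), PLS3 at chrX:115560924-115561173 (plus strand) and TYROBP at chr19:35908296-35908545 (minus strand). The GENCODE coordinates given above for the LCP1 gene start further upstream, so the LCP1 window lies within them.
LCP1: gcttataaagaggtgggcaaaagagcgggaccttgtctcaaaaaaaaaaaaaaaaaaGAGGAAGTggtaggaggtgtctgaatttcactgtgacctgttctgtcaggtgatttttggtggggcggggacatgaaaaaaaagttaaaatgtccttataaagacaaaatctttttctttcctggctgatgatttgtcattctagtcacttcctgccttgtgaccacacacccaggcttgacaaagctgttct
PLS3: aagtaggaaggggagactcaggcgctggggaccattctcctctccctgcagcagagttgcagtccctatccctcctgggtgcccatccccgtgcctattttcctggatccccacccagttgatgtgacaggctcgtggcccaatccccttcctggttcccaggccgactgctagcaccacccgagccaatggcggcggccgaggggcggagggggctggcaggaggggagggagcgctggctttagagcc
TYROBP: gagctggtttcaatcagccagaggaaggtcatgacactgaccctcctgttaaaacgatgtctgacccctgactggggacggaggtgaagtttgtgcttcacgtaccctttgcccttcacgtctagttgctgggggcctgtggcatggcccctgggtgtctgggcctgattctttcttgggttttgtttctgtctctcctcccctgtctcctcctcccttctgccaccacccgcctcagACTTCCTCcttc
The match lay at bases -193 to -186 before LCP1 and, as ACTTCCTC, at -12 to -5 before TYROBP, and the PLS3 window held none. Over the window from 250 bases before the start to 50 after it, on both strands, GAGGAAGT was in 2.54% of 27305 RefSeq promoters. It was in 4.20% of the 1095 protein-coding genes listed at 0 in EA.hy926 and in 1.86% of the 484 listed at 0 in THP-1. Of the 5023 genes that were in neither group and did not pass a log2 difference of 1, 2.53% held it. The ETS sequence CCGGAAGT, which shares its last 6 letters with it, was in 4.44% of all promoters. In the same groups of genes, in that order, CCGGAAGT was in 3.01%, 1.45% and 11.5%. These are shares of letters in a window, not binding sites. A promoter was found for 10541 of 13011 protein-coding genes tested.

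Receptors of myeloid growth factors and cytokines were mostly higher in THP-1, at 18 of 22 tested, with 4 higher in EA.hy926. IFNGR1, a chain of the interferon gamma receptor, was at 7742, 7712 and 7619.5 in THP-1 and 168, 229 and 218 in EA.hy926 (5.23 ± 0.12, adjusted p = 2.3e-08). IL17RA was at 2647, 2668 and 2775 in THP-1 and 101, 121 and 90.4 in EA.hy926, and TREM2, a lipid-sensing receptor that signals through DAP12, at 2252, 2279 and 2448 in THP-1 and at 0 in EA.hy926. The TNF receptors went opposite ways. TNFRSF1A, the widely expressed receptor, was at 2288, 2625 and 2523 in EA.hy926 and 643, 587 and 699 in THP-1 (-1.95 ± 0.09), and TNFRSF1B at 1248, 1283 and 1338 in THP-1 and at 0 in EA.hy926. The interleukin-4 and -13 receptor chains IL4R (-0.42 ± 0.06) and IL13RA1 (-0.33 ± 0.06) were slightly higher in EA.hy926. Of 23 Fc and complement receptors, 21 were higher in THP-1. The Fc receptor of the neonate FCGRT was at 2838, 2859 and 3057 in THP-1 and 157, 161 and 155 in EA.hy926 (4.20 ± 0.06). The 2 exceptions guard cells against complement: CD59 stood at 12161, 11041 and 10244 in EA.hy926 and 220.3, 239 and 242 in THP-1 (-5.57 ± 0.08, adjusted p = 4.5e-09), and CD55 differed by -0.18 ± 0.07.

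Toll-like receptors and their adaptors gave a mixed picture, with 16 of 22 higher in THP-1, 4 higher in EA.hy926 and MYD88 and IRAK1 not called. TLR2 stood at 908, 955 and 1004 in THP-1 and at 0 in EA.hy926, and CD14, a coreceptor for endotoxin, at 1533, 1619 and 1749.8 in THP-1 and at 0 in EA.hy926. TLR4 itself was read in both lines, at 1039, 1104 and 1026 in THP-1 and 495, 468 and 508 in EA.hy926 (1.11 ± 0.06). IRAK2, a kinase below the receptors, was far higher in EA.hy926, at 2527, 3079.8 and 3039 against 36.6, 27.4 and 37.6 in THP-1 (-6.38 ± 0.14, adjusted p = 2.5e-08), whereas IRAK3, which restrains the pathway, was at 644, 615 and 713 in THP-1 and at 0 in EA.hy926. The TLR4 partner LY96 (-1.20 ± 0.17), the RNA sensor TLR3 (-2.53 ± 0.17) and its adaptor TICAM1 (-1.86 ± 0.16) were also higher in EA.hy926. Of 10 NADPH oxidase subunits tested, 7 were higher in THP-1, and NOX4 was the one higher in EA.hy926. CYBA, the partner of CYBB in the membrane, was at 2257, 2467 and 2557 in THP-1 and 49.99, 28.5 and 40.6 in EA.hy926 (5.93 ± 0.19), and NCF4, a cytosolic subunit, at 682, 732 and 678 in THP-1 and at 0 in EA.hy926.

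Of 13 genes listed for MHC class II and its transactivator, 7 were higher in THP-1, 4 in EA.hy926 and 2 not called. The shares of 53.8% and 30.8% stood beside 45.7% and 37.5% of all genes. The list also held the protease gene CTSS, which was higher in THP-1. HLA-DRA, the alpha chain of HLA-DR, stood at 6.97, 5.88 and 7.52 in THP-1 and 195, 160.1 and 112 in EA.hy926 (-4.30 ± 0.22, adjusted p = 1.6e-06). The gene of the invariant chain, CD74, stood at 406, 450.2 and 485 in THP-1 and 13.3, 24.1 and 23.2 in EA.hy926 (4.44 ± 0.23). HLA-DRB1 was higher in THP-1 at 540.0, 612 and 599 against 94.9, 71.3 and 60.3 in EA.hy926, and reads of near-identical HLA genes may be split or lost by the counting. The transactivator CIITA was at 49.6, 43.1 and 51.7 in THP-1 and 85.7, 111 and 115 in EA.hy926 (-1.08 ± 0.15). With the LDL libraries of both lines compared instead, 12 of the genes were higher in THP-1 and 0 in EA.hy926, where HLA-DRA turned to 2.38, HLA-DPA1 to 2.57 and HLA-DPB1 to 1.88.

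Of 16 genes of leukocyte integrins and their kindlin-3 complex, 15 were higher in THP-1, with a median log2 difference of 3.86 over the 8 read in both lines. ITGAL, the alpha chain of LFA-1, was at 5422, 5235 and 5631 in THP-1 and 9.18, 12.1 and 9.28 in EA.hy926 (8.93 ± 0.11, adjusted p = 3.8e-09), and ITGA4 at 1461, 1402 and 1416 in THP-1 and 24.5, 30.7 and 28.99 in EA.hy926 (5.62 ± 0.10). TLN1, the talin that switches integrins on in all tissues, was also higher in THP-1, at 13352, 14119 and 13972 in THP-1 and 1849, 1574 and 1773 in EA.hy926. Of 15 matrix-binding integrins, 7 were higher in THP-1 and 8 in EA.hy926, against 9 and 4 in the LDL libraries. The control shares were 46.7% and 53.3%, beside 45.7% and 37.5% of all genes. ITGA2, a collagen receptor chain, was at 2368, 2032 and 2329.5 in EA.hy926 and 47.9, 37.9 and 36.7 in THP-1 (-5.75 ± 0.12), ITGA10 at 1274, 1504 and 1751 in EA.hy926 and 16.5, 18.9 and 18.8 in THP-1 (-6.30 ± 0.13), and ITGB4, which anchors epithelia to laminin, at 1157, 1359 and 1303 in EA.hy926 and at 0 in THP-1. ITGB5, a vitronectin receptor chain, was higher in THP-1 at 5826, 5736 and 6151 against 1483, 1575 and 1628 in EA.hy926 (1.92 ± 0.06).

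Endothelial receptors were higher in EA.hy926 at 20 of 24 tested and in THP-1 at 4, with a median log2 difference of -2.50 over the 16 read in both lines. ACVRL1 (ENSG00000139567.13, chr12:51906908-51923361, plus strand), the BMP9 receptor ALK1, was at 6782, 8202 and 7087 in EA.hy926 and 174, 156 and 202 in THP-1 (-5.37 ± 0.12, adjusted p = 2e-08). ROBO4, which steadies vessel walls, was at 3300.2, 3686 and 3326 in EA.hy926 and 53.1, 51.6 and 58.3 in THP-1, and CLEC14A at 1512, 1701 and 1713 in EA.hy926 and at 0 in THP-1. TEK, the angiopoietin receptor TIE2, was at 348, 356 and 342 in EA.hy926 and at 0 in THP-1. KDR, the main VEGF receptor of endothelium, was low in EA.hy926, at 13.3, 12.1 and 18.6, and listed at 0 in THP-1. The members higher in THP-1 were NRP1 (1.22 ± 0.07), a coreceptor of semaphorins and VEGF, UNC5B (2.62 ± 0.16), VIPR1, listed at 0 in EA.hy926, and PLXND1 (0.22 ± 0.09, adjusted p = 0.048), which lost its call with TMM (adjusted p = 0.067) and median-of-ratios scaling (adjusted p = 0.07).

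Genes of haemostasis were higher in EA.hy926 at 14 of 20. TFPI, the inhibitor of the tissue factor pathway, was at 5277, 4508 and 4139.5 in EA.hy926 and 40.1, 35.3 and 31.95 in THP-1 (-6.98 ± 0.12, adjusted p = 8.7e-09). ECE1, the enzyme that makes endothelin, was at 7533, 6776 and 6978 in EA.hy926 and 53.1, 45.7 and 39.5 in THP-1 (-7.24 ± 0.11), NOS3, the endothelial nitric oxide synthase, at 1079, 1272 and 1349 in EA.hy926 and 10.5, 10.5 and 18.8 in THP-1 (-6.48 ± 0.23), and PLAT, tissue plasminogen activator, at 379, 385 and 385 in EA.hy926 and at 0 in THP-1. VWF, the carrier of factor VIII, was at 556, 614 and 702 in EA.hy926 and 56.6, 56.2 and 72.4 in THP-1. F3, tissue factor, was at 75.8, 77.1 and 102 in THP-1 and at 0 in EA.hy926. The prostaglandin synthases PTGS1 and PTGS2 were both higher in THP-1, PTGS1 at 5732, 5524 and 5714 against 156, 163 and 143 in EA.hy926 (5.19 ± 0.07) and PTGS2 at 90.6, 101 and 72.4 against 0. Of 27 junction genes, 20 were higher in EA.hy926. CLDN11 was at 2558, 2710.2 and 2494 in EA.hy926 and at 0 in THP-1, and GJA1, the gap junction protein connexin 43, at 2293, 2177 and 1961 in EA.hy926 and 46.2, 41.2 and 42.3 in THP-1 (-5.60 ± 0.09). CTNNB1, beta-catenin, was higher in THP-1, at 5536, 5336 and 5626 against 2585, 3051 and 2717 in EA.hy926 (0.98 ± 0.07).

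Of 22 Notch pathway genes, 10 were higher in THP-1 and 9 in EA.hy926, close to the shares of all genes, against 14 and 4 in the LDL libraries. The ligands DLL4 (288, 361 and 478 in EA.hy926 and 13.1, 23.5 and 23.5 in THP-1, -4.18 ± 0.28) and JAG1 (-1.76 ± 0.08) were higher in EA.hy926, as was MFNG, which adds sugar to Notch (-5.64 ± 0.19). The ligand gene JAG2 (3.72 ± 0.10), the nuclear effector RBPJ (2.44 ± 0.08) and the protease ADAM10 (1.30 ± 0.06) were higher in THP-1. Of 14 Eph receptors and ephrins, 10 were higher in EA.hy926. EPHB4, the venous receptor of ephrin-B2, was at 1614, 2142 and 1787 in EA.hy926 and 20.03, 26.8 and 23.5 in THP-1 (-6.24 ± 0.15, adjusted p = 2.8e-08). Of 27 TGF-beta and BMP genes, 15 were higher in EA.hy926 and 8 in THP-1. The receptors of TGF-beta differed in direction, with TGFBR2 at 8462, 8404 and 8439 in EA.hy926 and 1082, 1079 and 1063 in THP-1 (-2.97 ± 0.04) and TGFBR1 at 1611, 1601 and 1594 in THP-1 and 379, 429.9 and 398 in EA.hy926 (1.99 ± 0.06). BMP2 and BMP4 were at 224, 214 and 211 and at 158, 142 and 162 in THP-1 and listed at 0 in EA.hy926, and BMP6 was higher in EA.hy926 (-7.07 ± 0.17).

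Of 30 collagens and laminins, 17 were higher in EA.hy926 and 12 in THP-1. COL4A1 (1.46 ± 0.10) and COL4A2 (1.81 ± 0.08), the common chains of basement membrane collagen, and the collagen VI gene COL6A1 (6.67 ± 0.28) were higher in THP-1. COL6A2 was at 1092, 1128 and 1212 and COL6A3 at 143, 156 and 137 there and at 0 in EA.hy926. COL4A5 was at 949.8, 1072 and 1139 in EA.hy926 and 13.9, 15.03 and 15.04 in THP-1 (-6.07 ± 0.10). Of 28 matrix glycoproteins and crosslinkers, 17 were higher in EA.hy926 and 11 in THP-1. THBS1, the antiangiogenic thrombospondin, was at 45757, 45382 and 47228 in EA.hy926 and 264, 303 and 311 in THP-1 (-7.30 ± 0.07, adjusted p = 2.7e-09). SPARC was at 2812, 2747 and 2708 in EA.hy926 and at 0 in THP-1, while VCAN, the proteoglycan versican, was at 584, 609.7 and 656 in THP-1 and at 0 in EA.hy926. FN1, fibronectin, was higher in THP-1, at 6197, 6021 and 6641 against 1962, 1855 and 2123 in EA.hy926 (1.67 ± 0.07).

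Caveolae are flask-shaped pits of the plasma membrane that are dense in endothelium. Of 8 genes tested, 7 were higher in EA.hy926. CAV1 (ENSG00000105974.13, chr7:116524785-116561184, plus strand), their main coat protein, was at 8899.8, 9703 and 8120.2 in EA.hy926 and 35.7, 35.9 and 45.1 in THP-1 (-7.81 ± 0.11, adjusted p = 5.1e-09), and CAVIN1 at 3331, 2919 and 2331 in EA.hy926 and at 0 in THP-1. The exception was PACSIN2 (2.70 ± 0.06), a membrane-bending protein with other uses. The YAP and TEAD pathway, which passes on tension from the matrix, was higher in EA.hy926 at 19 of 26 genes, with 6 higher in THP-1 and a median log2 difference of -3.10 over the 22 read in both lines. WWTR1, the coactivator TAZ, was at 1254, 1321 and 1349 in EA.hy926 and 34.8, 30.7 and 31.95 in THP-1 (-5.29 ± 0.08), and YAP1 at 534, 517 and 423 in EA.hy926 and 58.4, 62.1 and 63.9 in THP-1 (-2.97 ± 0.11). Their known target CCN1 was at 10502, 13248 and 13010.0 in EA.hy926 and 47.9, 37.9 and 42.3 in THP-1 (-8.13 ± 0.12). The targets CCN2 (-7.55 ± 0.18), AXL (-6.34 ± 0.08) and CRIM1 (-6.36 ± 0.08) were also higher in EA.hy926. These targets, picked from the list, had larger differences than WWTR1 and YAP1. ANKRD1 (ENSG00000148677.7, chr10:90912096-90921276, minus strand), another target, was at 861, 799.6 and 565 in EA.hy926 and at 0 in THP-1. NF2 (0.88 ± 0.10) and LATS1 (0.34 ± 0.08), which hold the pathway back, were higher in THP-1, while LATS2 was higher in EA.hy926 (-0.77 ± 0.15). F3 and AMOT, also on the list, were at 0 in EA.hy926. In THP-1 F3 was at 75.8, 77.1 and 102 and AMOT at 27.9, 23.5 and 29.1.

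The ANKRD1 promoter is shown because it held the letters of both TEAD (TGGAATG) and AP-1 (TGANTCA) sites, in capitals, on the same terms as above (RefSeq, GRCh38.p14, chr10:90921088-90921337, minus strand).
ANKRD1: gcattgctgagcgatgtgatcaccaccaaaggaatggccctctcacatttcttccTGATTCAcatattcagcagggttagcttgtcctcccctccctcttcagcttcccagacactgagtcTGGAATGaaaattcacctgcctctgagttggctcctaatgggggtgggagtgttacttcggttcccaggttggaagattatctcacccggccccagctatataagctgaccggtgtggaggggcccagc
TGATTCA lay at bases -195 to -189 and TGGAATG at -129 to -123, counted from the RefSeq start. The GENCODE coordinates given above for ANKRD1 start further upstream. They overlap this window in part and take in the TGGAATG match. TGANTCA was in 7.76% of all RefSeq promoters, in 10.1% of genes listed at 0 in THP-1, in 5.02% of those listed at 0 in EA.hy926 and in 3.48% of the genes that were in neither group and did not pass a log2 difference of 1. TGGAATG was in 4.20% of all promoters, and in 3.31% and 3.01% of the genes listed at 0 in THP-1 and EA.hy926. Of the genes in neither group that did not pass that log2 difference, 2.19% held it.

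Simple keratins and other epithelial genes were listed for the carcinoma parent. KRT18 was at 4444, 4344 and 3675 and KRT8 at 1259.9, 1170.3 and 1045 in EA.hy926, and KRT80 at 1676, 2026 and 1873, all with 0 in THP-1. Only 9 of the 38 epithelial genes listed were tested, of which 6 were higher in EA.hy926 and 2 in THP-1. The 2 were ST14, the protease matriptase, at 2316, 2343 and 2484 in THP-1 and at 0 in EA.hy926, and the factor ELF3 at 34.8, 26.8 and 40.4 in THP-1 and at 0 in EA.hy926. VIM, the filament of mesenchymal cells, was at 40638, 35741 and 30808 in EA.hy926 and 8640.4, 9059.8 and 9156 in THP-1 (-1.99 ± 0.10). LMNA was higher in EA.hy926 (-1.63 ± 0.05) and LMNB1 in THP-1 (3.17 ± 0.17). A549 carries a KEAP1 mutation that is known to keep NRF2 active. Of 23 NRF2 targets, 14 were higher in EA.hy926, 6 in THP-1 and 3 not called, with a median log2 difference of -0.77 over the 22 read in both lines. TXNRD1 was at 16976, 16996 and 16181 in EA.hy926 and 1437, 1460.4 and 1422 in THP-1 (-3.54 ± 0.05, adjusted p = 3.8e-09), and the cystine transporter gene SLC7A11 at 5191, 5138 and 6142 in EA.hy926 and 325, 327 and 344 in THP-1 (-4.04 ± 0.08). GSR (1.63 ± 0.05) and ABCC3 (2.91 ± 0.21) were higher in THP-1, and GCLM was not called (-0.03 ± 0.08, adjusted p = 0.75).

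Lipoprotein handling was weighted towards THP-1, where 22 of 31 genes were higher, against 8 in EA.hy926. ABCA1, which exports cholesterol to lipid-poor particles, was at 6531, 6402 and 6481 in THP-1 and 297, 339 and 337 in EA.hy926 (4.32 ± 0.07, adjusted p = 5.8e-09). LIPA, the lysosomal acid lipase, was at 13515, 13410.4 and 13733 in THP-1 and 336, 315 and 307 in EA.hy926 (5.40 ± 0.05), LRP8 at 1113, 1113 and 1183 in THP-1 and 102, 109 and 110.2 in EA.hy926 (3.40 ± 0.07), and LPL at 6859, 6718 and 6604 in THP-1 and at 0 in EA.hy926. The 3 members of largest difference with the reverse direction were SCARF1, a scavenger receptor of endothelium (1298, 1611 and 1671 in EA.hy926 and 20.03, 18.9 and 25.4 in THP-1, -6.09 ± 0.15), PLTP (-2.73 ± 0.15) and NPC1 (-1.68 ± 0.13). Of 35 lysosomal genes, 28 were higher in THP-1 and 5 in EA.hy926, with a median log2 difference of 1.47 over the 31 read in both lines. CTSS was at 4106, 4040.2 and 3868 in THP-1 and 69.4, 74.6 and 101 in EA.hy926 (5.62 ± 0.14) and CTSL at 4504, 4541 and 4794 in THP-1 and 361, 344 and 383 in EA.hy926 (3.67 ± 0.06), while CTSB (-0.98 ± 0.06) and LGMN (-3.18 ± 0.12) were higher in EA.hy926.

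Secreted proteases and cytokines differed gene by gene. Of 27 matrix proteases and inhibitors, 14 were higher in THP-1, 8 in EA.hy926 and 5 not called. The shares of 51.9% and 29.6% stood beside 45.7% and 37.5% of all genes. MMP1, the interstitial collagenase, was at 31419, 29989.6 and 33268 in EA.hy926 and 179, 179.7 and 189.8 in THP-1 (-7.42 ± 0.06, adjusted p = 2.3e-09), MMP14, the membrane-bound activator of MMP2, at 14442, 14498 and 15530.4 in THP-1 and 2718, 2957 and 3082 in EA.hy926 (2.35 ± 0.06), and MMP2 itself was higher in EA.hy926 (-3.52 ± 0.09). Of 32 cytokines and growth factors, 13 were higher in THP-1 and 15 in EA.hy926, against 23 and 8 in the LDL libraries. The control shares were 40.6% and 46.9%, beside 45.7% and 37.5% of all genes. The interleukin-1 genes had opposite directions, with IL1B at 236, 225 and 230.2 in THP-1 and 48.97, 47.2 and 45.2 in EA.hy926 (2.27 ± 0.09) and IL1A at 220.4, 213 and 188 in EA.hy926 and 1.74, 1.31 and 0.94 in THP-1, where 5 reads in all give no fold. CSF2 and CSF3, which act on myeloid cells, were at 179, 163 and 157 and 279.5, 288 and 326 in EA.hy926 and at 0 in THP-1. CCL3 was at 1258, 1117 and 1117 in THP-1 and at 0 in EA.hy926, and the monocyte chemokine CCL2 at 263, 261 and 261 in EA.hy926 and 2.61, 4.57 and 2.82 in THP-1 (-5.95 ± 0.19), a direction that turned to 1.17 in the LDL libraries. Of 30 interferon-induced genes, 19 were higher in THP-1, 6 in EA.hy926 and 5 not called, against 30 and 0 in the LDL libraries. OAS3 was at 1719, 1807 and 1692 in THP-1 and 185, 209 and 165 in EA.hy926 (3.22 ± 0.10), whereas ISG20 (-4.17 ± 0.11) and IFI27 (-5.19 ± 0.28) were higher in EA.hy926.

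Cell division genes were higher in THP-1 at 30 of 32, with a median log2 difference of 2.19 over the 31 read in both lines. In the LDL libraries 17 were higher in THP-1 and 9 in EA.hy926, with a median of 0.47. MKI67, a marker of cycling cells, was at 2158, 2098 and 2077 in THP-1 and 182, 168 and 147 in EA.hy926 (3.67 ± 0.09, adjusted p = 3e-08), TYMS at 1825, 1886 and 1881 in THP-1 and 421, 418 and 408 in EA.hy926 (2.16 ± 0.05), and MCM3, part of the replication helicase, at 3076, 3066 and 3133 in THP-1 and 623, 643 and 677 in EA.hy926 (2.25 ± 0.05). PCNA (-0.84 ± 0.06) and UBE2C (-1.57 ± 0.13) were the genes higher in EA.hy926. In a bulk library, fewer cells of a kind and less RNA per cell cannot be told apart. Of 20 genes listed as cell cycle brakes and tumour suppressors, 10 were higher in THP-1 and 9 in EA.hy926. These are shares of 50% and 45%, beside 45.7% and 37.5% of all genes. The list also held the cyclin genes CCND1 and CCND3, the kinase gene CDK6 and MDM2, so the count is not one of brakes alone. The D-type cyclin genes CCND1 and CCND3 differed in opposite directions between the lines, as did the kinase genes CDK4 and CDK6. In THP-1, CCND1 was still above CCND3. CCND1 was at 7718, 7692 and 6361 in EA.hy926 and 1029, 1127 and 1121 in THP-1 (-2.73 ± 0.09), and CCND3 at 714, 769 and 759 in THP-1 and 65.3, 96.5 and 78.8 in EA.hy926 (3.22 ± 0.14). CDK4 was higher in EA.hy926 (-1.66 ± 0.08) and CDK6 in THP-1, at 4099, 4263 and 4109.5 against 109, 92.1 and 83.5 in EA.hy926 (5.45 ± 0.10). MDM2, a ubiquitin ligase, was at 5683, 5474 and 6191 in EA.hy926 and 1296, 1297 and 1215 in THP-1 (-2.19 ± 0.06, adjusted p = 8.3e-08).

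Of 50 cytosolic ribosomal protein genes, 45 were higher in EA.hy926 and 2 in THP-1, with a median log2 difference of -1.09; with the depth counted without RN7SL1 reads 45 and 2 were called and the median was -1.07. In the LDL libraries 50 were higher in EA.hy926 and the median was -2.29. The part of RN7SL1 in the scaling of these genes was not tested further. RPS2 was at 25155, 23508 and 21345 in EA.hy926 and 4116, 4325 and 4204 in THP-1 (-2.47 ± 0.07, adjusted p = 6.7e-08). RPL5 (0.26 ± 0.08) and RPS6 (0.57 ± 0.10) were higher in THP-1 and turned to -0.53 and -0.60 in the LDL libraries. Of 13 mitochondrial mRNAs, 9 were higher in THP-1 and 4 not called, with a median of 1.76; MT-ND4 was at 827, 712 and 681 in THP-1 and 168, 215 and 158 in EA.hy926 (2.04 ± 0.14). In the LDL libraries the list turned, with 0 higher in THP-1, 5 higher in EA.hy926 and a median of -0.56, and MT-ND4 was at a difference of -0.84. Of 31 nuclear genes of the respiratory chain, 13 were higher in THP-1, 8 in EA.hy926 and 10 not called, against 4 and 20 in the LDL libraries. The control shares were 41.9% and 25.8%, beside 45.7% and 37.5% of all genes. Of 28 glycolysis genes, 15 were higher in THP-1 and 10 in EA.hy926, shares of 53.6% and 35.7% beside 45.7% and 37.5% of all genes. SLC2A5, a fructose transporter, was at 1755, 1888 and 2021 in THP-1 and at 0 in EA.hy926, and SLC2A3, a glucose transporter, at 1891, 2664 and 2350.4 in EA.hy926 and 104, 114 and 101 in THP-1 (-4.41 ± 0.13). GAPDH was at 27983, 26934 and 21698 in EA.hy926 and 6097, 6498 and 6179.8 in THP-1 (-2.02 ± 0.10) and ACTB at 66889.6, 73075 and 73816 in THP-1 and 32076, 38942 and 36412 in EA.hy926 (1.00 ± 0.08), so neither of these common reference genes was level between the lines.

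**Figure D4:**
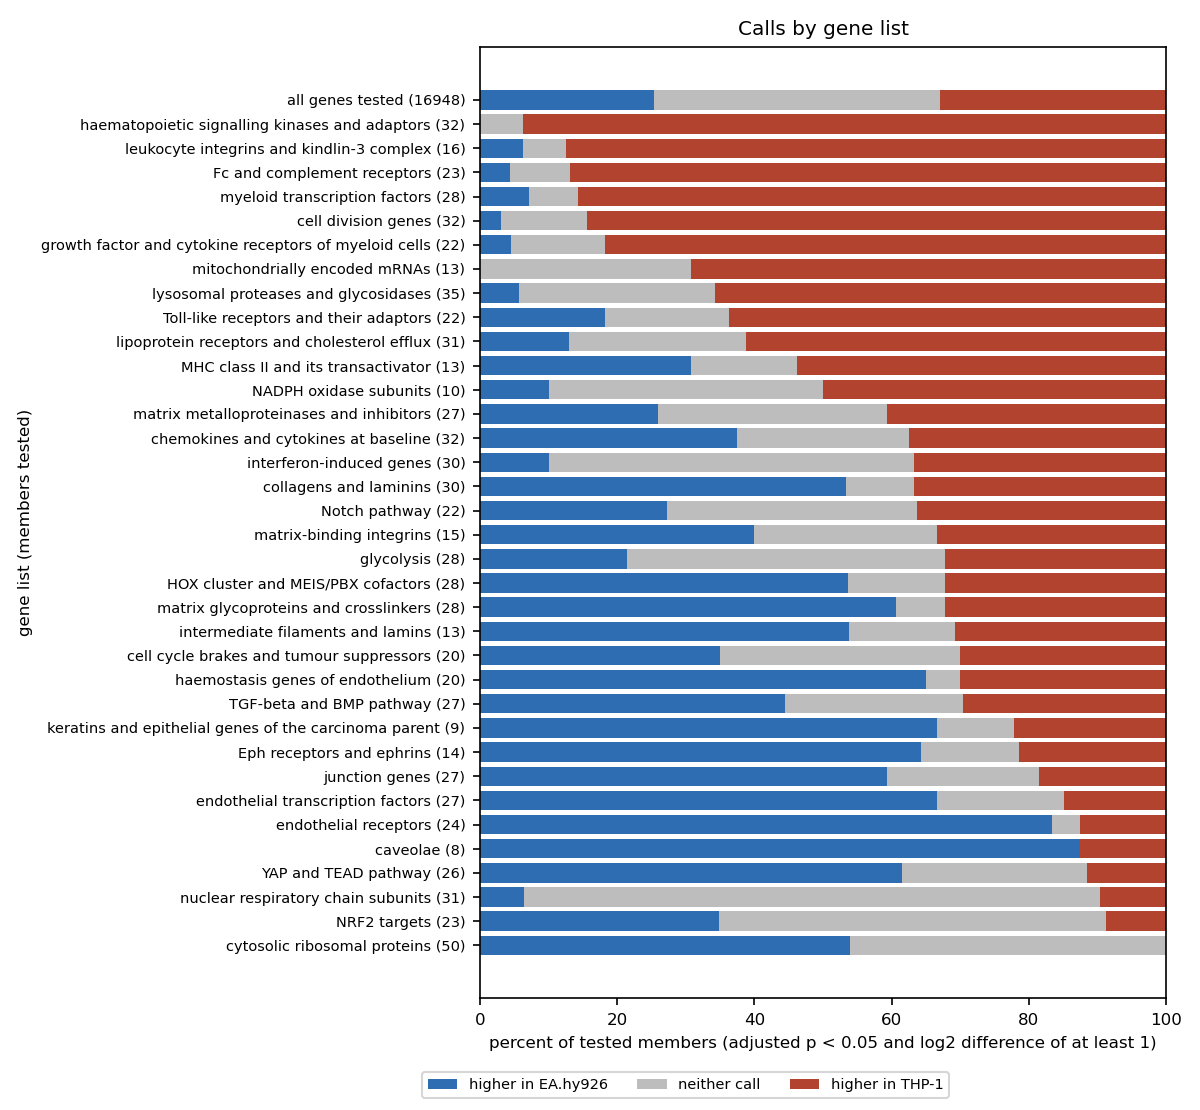
Share of the tested members of 35 gene lists that were called with a log2 difference of at least 1, higher in THP-1 (red) or in EA.hy926 (blue), with the number tested in brackets and all 16948 genes in the top bar. Red takes 32.9% and blue 25.3% of all genes. The haematopoietic signalling and mitochondrial mRNA lists have no blue and the ribosomal protein list no red.

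The difference between the lines also varied by chromosome. Over genes with reads in both lines the median log2 difference was 0.87 on chromosome 13 and -0.97 on chromosome 20, beyond 0.56 and -0.45 on the next chromosomes in each direction, 8 and 14. On chromosome 13, 53.1% of the 294 genes tested were higher in THP-1 with a log2 difference of at least 1, and on chromosome 20, 13.9% of 445 were, against 32.9% of all genes. Taken library by library against the mean of the other line, the chromosome 20 median was -0.98 to -0.99 in each THP-1 library and 0.93 to 1.01 in each EA.hy926 library. In the LDL libraries the same genes had medians of 1.04 on chromosome 13 and -0.86 on chromosome 20. The genomes of these cultures were not examined here.

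**Figure D5:**
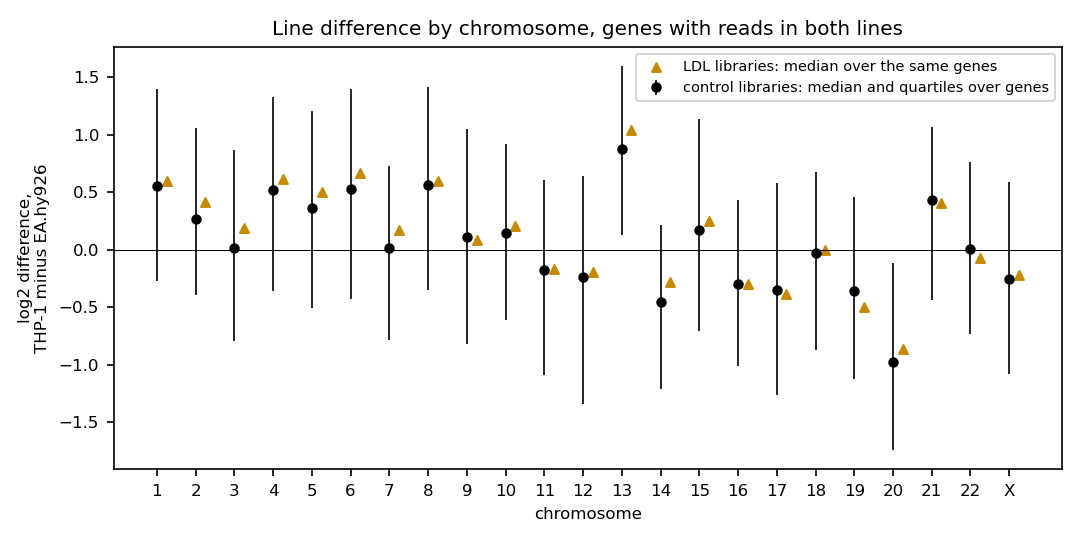
Median log2 difference between THP-1 and EA.hy926 control over the genes of each chromosome with reads in both lines (black points; bars span the quartiles over genes), with the median of the same genes in the LDL libraries as triangles. Chromosome 13 has the highest median at 0.87 and chromosome 20 the lowest at -0.97.

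A stretch of chromosome 9 around CDKN2A, a band lost in many tumour lines, A549 among them, held several genes at 0. MTAP, CDKN2A and CDKN2B were listed at 0 in all 6 libraries. Their neighbours KLHL9, MIR31HG, IFNE, CDKN2B-AS1 and DMRTA1 were at 0 in THP-1 and read in EA.hy926, where KLHL9 stood at 391, 400.3 and 395 and DMRTA1 at 72.4, 59.2 and 45.2. The run was broken by RN7SL151P, between IFNE and MTAP, at 20.9, 24.2 and 21.6 in THP-1 and 216, 114 and 143 in EA.hy926, a relative of RN7SL1 whose reads may be shared with near-identical copies. HACD4, which lies before KLHL9, went the other way, at 265, 251 and 214 in THP-1 and at 0 in EA.hy926. FOCAD, which lies before HACD4, was read in both lines, at 1039, 1035 and 1006 in THP-1 and 1483, 1190.0 and 1151 in EA.hy926. These genes were picked after their values were seen, and a gene at 0 in this table is not shown to be lost.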

How the data were processed

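Total RNA was sequenced from THP-1 and EA.hy926 control cultures, 3 libraries each. The authors deposited a normalised signal for each gene, in which the reads per gene had been scaled by 1 size factor per library. Per the submitters' processing notes, the tools were STAR, HTSeq and DESeq2 with FastQC and MultiQC, on GRCh38. No source used here gives their versions, the annotation, the strand setting or a filter. Whole reads could be recovered from 100% of the values (tolerance 0.001), 6.88 to 11.0 M per library, and the log2 of each value plus 1 was fitted in R 4.3.3 with limma 3.58.1, two-sided and with an intensity trend, with Benjamini-Hochberg adjustment over 16948 genes and a threshold of 0.05. With 3 against 3 an exact permutation test cannot go below 0.1. The recovered reads were tested with edgeR 4.0.16 and DESeq2 1.42.0 as alternatives. The fit was also run on simulated counts with few changed genes and the same dispersion in both lines. In these data most genes were called and the lines differed in spread, so that run does not test the calls given here. Libraries of a group differed beyond counting error, with a chi-square of 1.85 to 12.5 per gene compared, so none was counted as a duplicate.

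Symbols were matched by gene identifier (20104 of 20117) and coordinates taken from GENCODE release 29 on GRCh38, which may not be the release the authors used. Motifs were searched on both strands of RefSeq promoters of GRCh38.p14. A few genes that the naming rule took are not reported here. Near-identical genes, such as HLA genes, and overlapping antisense genes may share reads. The genes, the 35 lists and the 27 pairs were chosen with earlier results of these data known. The rule for named genes took the 10 largest differences in each direction among genes read in both lines with a mean of at least 50 in one of them and no overlap, the 10 highest listed at 0 in each line, up to 3 per list and direction by adjusted p with up to 2 listed at 0, every pair and a panel of 22 genes. Chosen after their values were seen were the promoters shown, RN7SL1, the genes at CDKN2A, AZU1, BMP6, CCN2, CD22, CD68, CDK4, CIITA, COL4A1, CSK, ETS1, GCLM, HACD4, HLA-DRB1, HOXA3, IRAK1, IRAK3, KDR, KRT8, KRT80, LATS2, LY96, LYL1, MYD88, NCAM1, NOS3, RASGRP3, RN7SL151P, SOX18, SOX7, TNFRSF1B, TYROBP and VWF.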

Additional observations from a re-analysis of the deposited data

How the results depend on the processing

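The counts of 7749 genes higher in THP-1 and 6349 higher in EA.hy926 stayed within 1.5 times under TMM, median-of-ratios and quantile scaling, another pseudocount, no intensity trend, edgeR (7715 and 6553), DESeq2 (7446 and 6424) and no filter on low values. Quantile normalization gave 7099 and 7144, so that 49.8% of calls lay towards THP-1 instead of 55.0%. With at least 1 read in each line required, 3043 and 2821 genes passed a log2 difference of 1 and 8 paralogue pairs had opposite calls, since genes listed at 0 then drop out. With a mean of at least 10 in both lines, 4811 genes were higher in THP-1, 2664 and 2485 passed a log2 difference of 1, 258 list members were higher in THP-1 and 7 pairs were opposite; this also leaves out genes with reads but a mean under 10 in one line, among them LCP1. Genes listed at 0 with a mean of at least 50 in the other line numbered 929 for EA.hy926 and 442 for THP-1. Leaving out 1 library in turn gave 7288 to 7829 genes higher in THP-1 and 5956 to 6481 higher in EA.hy926, 5489 to 5649 and 4222 to 4375 past a log2 difference of 1, and 18 opposite pairs each time. A fit with the replicate number as a block called 7824 and 6387 genes; the same-numbered libraries shared only a number, with correlations of 0.101, 0.00118 and 0.121, and THP-1 replicates 1 and 3 but not 2 correlated best with their own number.

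With the LDL libraries in place of the controls, 11647 of the 14098 calls (82.6%) were called in the same direction and 562 in the opposite one. The rest were not called there. The named genes that turned are counted by the sign of the difference alone, called or not. Among the named genes, 24 turned: HLA-DRA (2.38), HLA-DPA1 (2.57), HLA-DPB1 (1.88), BATF3 (2.73), IRF7 (2.49), CLDN1 (1.64), IFI27 (1.61), DLL4 (1.35), CCL2 (1.17), IL13RA1 (0.93), TLR3 (0.83), ISG20 (0.82), MUC1 (0.38), WASL (0.35) and CD55 (0.19) became higher in THP-1 by these log2 differences. MT-ND4 (-0.84), LMNB2 (-0.82), CYTH3 (-0.81), RPS6 (-0.60), RPL5 (-0.53), MT-ND5 (-0.24), NF2 (-0.21), PTPN11 (-0.21) and ATP5F1A (-0.041) became higher in EA.hy926 by that measure. These are other samples, with LDL, and the cause was not tested. Low counts limit the precision wherever a line holds a few reads.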

Other observations

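In the classes below, larger shares of genes were listed at 0 in one line than among protein-coding genes. Such genes have no fold but count as passing a log2 difference of 1. Of 13011 protein-coding genes tested, 30.9% were higher in THP-1 and 23.3% higher in EA.hy926 with a log2 difference of at least 1. Of these 13011, 11.2% were listed at 0 in EA.hy926 and 5.26% in THP-1. Among 103 genes annotated as miscellaneous RNA, the class that holds RN7SL1 and its relatives, the shares were 18.4% and 78.6%, and 52 of them were listed at 0 in THP-1. Among 204 sense intronic transcripts the shares were 62.3% and 15.2%, and 93 were listed at 0 in EA.hy926. The 854 long intergenic non-coding RNAs were closer to even, at 40.2% and 36.8%, with 29.7% listed at 0 in EA.hy926 and 24.9% in THP-1. The 1137 antisense genes had shares of 33.8% and 32.4%, with 21.8% and 19.7% listed at 0 in EA.hy926 and THP-1. Miscellaneous RNA genes include near-identical copies, and how their reads were assigned is not given in the files used here.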
